A study of Mus musculus with 4 samples.

Results

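The injured Achilles tendon stump of 6-month-old mice was set beside that of 7-day-old mice, 5 days after the tendon had been cut (tenotomy). The comparison rested on 2 of the 4 RNA sequencing libraries of the study, the 6-month tenotomy pool and the 7-day tenotomy pool, and the 6-month sham and 7-day sham pools gave the age difference without a cut tendon. All mice were male and homozygous for Scx-EGFP on a C57BL/6 background, a line in which green fluorescent protein reports the tendon transcription factor gene Scx. Tenotomy was done on the right hindlimb and the sham operation on the left, and RNA was collected 5 days later. The 6-month tenotomy library came from 9 mice and the 7-day tenotomy library from 11 mice, while the 6-month sham library came from 5 mice and the 7-day sham library from 11 mice. After tenotomy the distal stump was dissected free of the connective tissue around it. The labels give 7 days both as the age at operation and as the age at harvest. In 1 place they call the tendons of the tenotomy pools uninjured; grouping here followed the named operation. Whether the tenotomy and sham pools of an age came from the same animals is not stated. Each group was a single pool, so the spread between animals was not measured, no test was possible and no difference given here has a replicate check.

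A cut tendon heals through inflammation, growth of cells and deposition of new matrix. In neonatal mice the Achilles tendon can regain much of its structure, whereas in adult mice it heals with a scar in which tendon-like, cartilage-like and bone-like tissue may form. Tendon fibroblasts (tenocytes) express Scx, Mkx and the membrane protein gene Tnmd, make mainly type I collagen, and are wrapped by a sheath whose cells express Tppp3 and Prg4.

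Expression was measured in FPKM, that is fragments per kilobase adjusted for library size, so that levels of different genes can be compared. Of 21395 gene entries kept after small RNA genes and predicted genes named Gm were left out, 9121 reached 5 FPKM in at least 1 of the tenotomy pools and were compared. The ratio used here is log2 of (6-month FPKM + 1) over (7-day FPKM + 1), minus its median over all genes compared, so a positive ratio means a higher level at 6 months and the median of all genes is 0. The median removed was -0.25 after tenotomy and -0.25 after sham. Folds are on that centred scale, and the 1 FPKM added to each value understates differences of low genes. The steps between low FPKM values implied about 2420000 fragments in the 6-month tenotomy library and 3270000 in the 7-day tenotomy library, with 1790000 in the 6-month sham and 2680000 in the 7-day sham library. A transcript of 2 kb at 5 FPKM was thus read in about 24.2 and 32.7 fragments in the 6-month and 7-day tenotomy libraries. Small RNA genes took 51.7% of all FPKM in the 6-month tenotomy pool and 27.3% in the 7-day tenotomy pool, against 41.3% in the 6-month sham and 28.6% in the 7-day sham pool.

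The 6-month stump held more RNA of inflammatory, antigen-presenting and skeletal muscle genes, and less RNA of collagen, elastic fibre, tendon, imprinted growth and mast cell protease genes, than the 7-day stump. Type I collagen led both pools: Col1a1 was the most abundant gene, at 5766 FPKM at 6 months and 13214 FPKM at 7 days. Of the 9121 genes, 816 were at least 2-fold higher at 6 months, which is 8.95% of them, and 482 were at least 2-fold lower, which is 5.28%. Without centring the split was 581 higher and 918 lower, and with genes set by their percentile rank in each library it was 693 higher and 605 lower. The 2 pools shared 73 of their 100 most abundant genes, and Spearman's rho between their FPKM values was 0.76 across the 9121 genes, which are not independent replicates. Between the sham pools, 903 of 9227 genes were higher at 6 months (9.79%) and 754 were lower (8.17%).

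**Figure D1:**
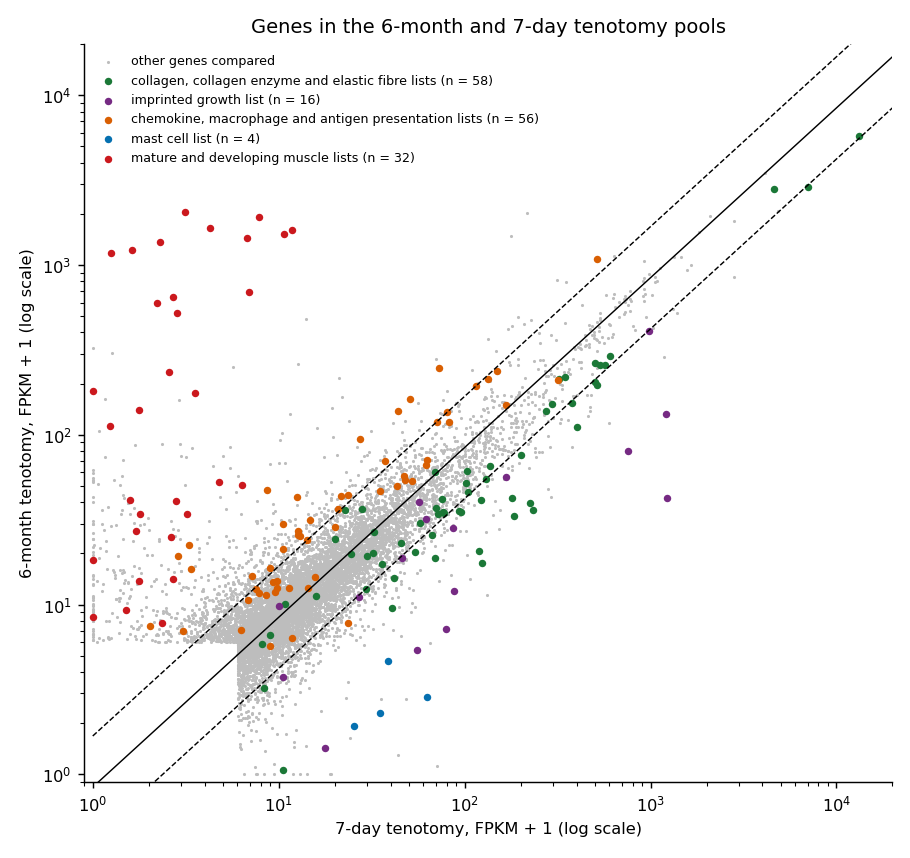
Each point is 1 gene compared, at its level in the 7-day tenotomy pool (x axis) and in the 6-month tenotomy pool (y axis), both as FPKM + 1 on log scales, with members of 5 groups of lists coloured. The solid line is the median ratio and the dashed lines lie 2-fold from it. Muscle genes lie far above the upper line, and most imprinted growth genes and the mast cell genes lie below the lower line.

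Growth genes of fetal and neonatal life were among those with the largest differences towards the 7-day stump. Imprinted genes are expressed from the copy of 1 parent, and many set growth before and shortly after birth. Of 18 listed genes of the imprinted growth network, of which Gpc3 is not itself imprinted, 16 were measured. At 6 months 13 were at least 2-fold lower and none was higher (median ratio -1.34). Igf2, the fetal insulin-like growth factor, stood at 41.1 FPKM in the 6-month tenotomy pool and 1226 FPKM in the 7-day tenotomy pool, with 7.96 FPKM in the 6-month sham and 858 FPKM in the 7-day sham pool. Its rank among the 9121 genes was 1012 at 6 months and 16 at 7 days after tenotomy, and it was 24.5-fold lower at 6 months. Both 6-month pools lay far below both 7-day pools, and at either age the tenotomy pool lay above the sham pool.

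The neighbouring long non-coding RNA gene H19 (chromosome 7, 142575529-142578143, next to Igf2 at 142650766-142666816, both on the minus strand of GRCm38) stood at 132 FPKM at 6 months and 1217 FPKM at 7 days after tenotomy. Mest, an imprinted gene of mesodermal tissue, stood at 79.6 FPKM in the 6-month tenotomy pool and 754 FPKM in the 7-day tenotomy pool, with 5.58 FPKM in the 6-month sham and 105 FPKM in the 7-day sham pool. Plagl1, a zinc finger factor that regulates other imprinted genes, had 6.18 FPKM at 6 months and 78.4 FPKM at 7 days after tenotomy. In these 3 genes, too, both 6-month pools were lower than both 7-day pools. Dlk1, a membrane protein gene that inhibits fat cell formation, and Gpc3, a glypican that restrains growth, were lower as well, with ratios of -3.39 and -3.11. Meg3 (ratio -0.26), Igf2r (-0.70) and Slc38a4 (0.23) did not pass 2-fold. After sham, 12 of the 16 were lower at 6 months and none was higher, with a median of -2.39.

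Other genes of fetal and neonatal growth followed the same direction in 9 of 15 measured members of 23 listed, and 1 was higher (median -1.20, against -1.33 after sham). Mdk and Ptn encode midkine and pleiotrophin, related heparin-binding growth factors. Mdk stood at 10.4 FPKM at 6 months and 130.5 FPKM at 7 days after tenotomy, and in sham pools it was listed at 0 at 6 months and at 27.7 FPKM at 7 days. Ptn stood at 13.1 FPKM at 6 months and 105 FPKM at 7 days after tenotomy. The exception was Hmga1, a chromatin protein gene of growing cells, at 17.6 FPKM in the 6-month tenotomy pool and 3.40 FPKM in the 7-day tenotomy pool, while the sham pools had 0.00104 FPKM at 6 months and 9.36 FPKM at 7 days. Agtr2, the type 2 angiotensin receptor, had the lowest ratio of all genes outside the lists (-4.82), with 0.308 FPKM at 6 months and 42.9 FPKM at 7 days after tenotomy.

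Of 16 listed genes of IGF and insulin signalling 14 were measured, 5 were lower at 6 months and none was higher (median -0.69). The 5 were both ligands, Igf1 and Igf2, and the binding proteins Igfbp2, Igfbp3 and Igfbp4. Igf1 stood at 41.8 FPKM at 6 months and 289 FPKM at 7 days after tenotomy, with 21.2 FPKM in the 6-month sham and 151 FPKM in the 7-day sham pool. Igfbp3 and Igfbp4 had 25.7 and 287 FPKM at 6 months and 129 and 1176 FPKM at 7 days after tenotomy. The other binding protein genes measured, Igfbp5, Igfbp6 and Igfbp7, had ratios of -0.93, -0.01 and -0.58. The receptor gene Igf1r had 8.43 FPKM at 6 months and 13.1 FPKM at 7 days after tenotomy, a ratio of -0.33, and Insr a ratio of 0.22.

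Downstream of these receptors, PI3K and Akt carry growth signals to mTOR. The study concerns this pathway, and most of its genes differed little by age: of 38 listed 33 were measured, 3 were at least 2-fold higher at 6 months, a share close to that among all genes, none was lower and the median was 0.23. Akt1 had a ratio of -0.32 (66.7 FPKM at 6 months, 99.8 FPKM at 7 days after tenotomy), Akt2 of 0.31, Pik3ca, the catalytic subunit p110-alpha, of 0.04, and Mtor of 0.42. Among the 27 members at or above 5 FPKM in both tenotomy pools, 1 was higher. The 3 higher genes of all 33 measured were Pik3cd, Pik3r5 and Inpp5d, which encode PI3K subunits and a lipid phosphatase of leukocytes. Pik3r5 stood at 12.9 FPKM at 6 months and 3.15 FPKM at 7 days after tenotomy. They moved with the macrophage and monocyte list, whose summed level was 2409 FPKM at 6 months and 1419 FPKM at 7 days after tenotomy, and the part of those cells in the 3 ratios was not tested. FPKM measures RNA and not the activity of the kinases.

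Genes of cell division were at similar levels in both stumps. None of 19 measured DNA replication genes and none of 22 measured mitosis genes passed 2-fold, with medians of -0.15 and -0.35. Mki67, a marker of cycling cells, stood at 12.1 FPKM in the 6-month tenotomy pool and 19.2 FPKM in the 7-day tenotomy pool, with 3.94 FPKM in the 6-month sham and 13.4 FPKM in the 7-day sham pool. Top2a, a topoisomerase of dividing cells, stood at 16.9 FPKM at 6 months and 26.5 FPKM at 7 days after tenotomy, with 3.43 FPKM in the 6-month sham and 14.2 FPKM in the 7-day sham pool. In both genes the 6-month sham pool was the lowest of the 4, and the 6-month tenotomy pool lay close to the 7-day sham pool. Between the sham pools, 8 of 12 measured mitosis genes and 4 of 17 replication genes were lower at 6 months, with medians of -1.25 and -0.62. Among 12 measured cell cycle inhibitors and p53 targets, 3 were higher at 6 months after tenotomy and 1 was lower. Among the higher ones Cdkn1a, which encodes p21, had 37.9 FPKM at 6 months and 17.1 FPKM at 7 days, and Ccng1 and Gadd45g had ratios of 1.93 and 1.94.

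**Figure D2:**
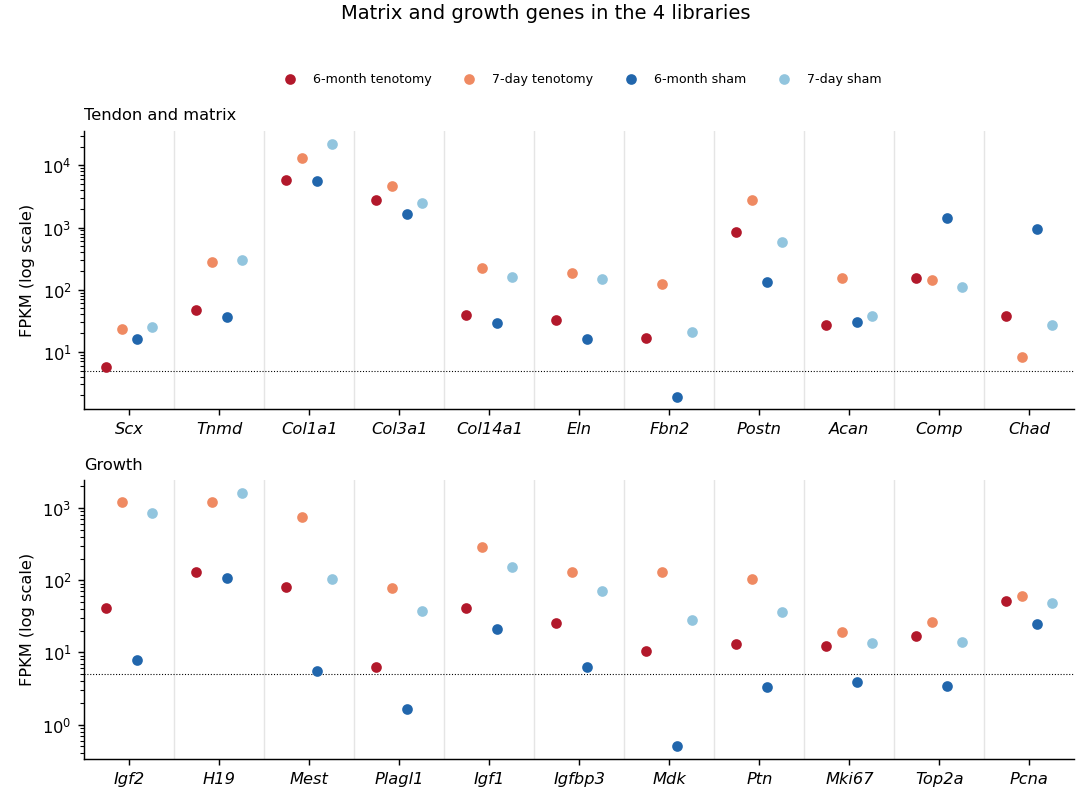
FPKM on a log scale of 11 tendon and matrix genes (top) and 11 growth genes (bottom) in each library, 1 point a pool; values under 0.5 FPKM are drawn at 0.5 and the dotted line marks 5 FPKM. Igf2, H19 and Mest are lower in both 6-month pools than in both 7-day pools, while Mki67 and Top2a are lowest in the 6-month sham pool.

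The matrix of the 6-month stump was poorer in collagen and elastic fibre transcripts. Of 16 collagen genes measured, 8 were at least 2-fold lower at 6 months and none was higher (median -0.99). By percentile rank, which compresses differences between abundant genes, 6.2% of the 16 were lower. Together the 17 listed collagens made up 4.57% of the FPKM of the entries kept in the 6-month tenotomy pool and 8.33% in the 7-day tenotomy pool, against 3.12% in the 6-month sham and 10.1% in the 7-day sham pool. Col1a1 (ratio -0.95) fell just short of 2-fold, and Col1a2, the second chain of type I collagen, just passed it (-1.04). Col3a1, the type III collagen of early repair tissue, stood at 2807 FPKM at 6 months and 4607 FPKM at 7 days after tenotomy, with 1652 FPKM in the 6-month sham and 2449 FPKM in the 7-day sham pool. For Col3a1 both tenotomy pools lay above both sham pools, which was not so for Col1a1, at 5578 FPKM in the 6-month sham and 22438 FPKM in the 7-day sham pool.

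Collagens that sit on fibrils or start them differed by unequal amounts. Col14a1 and Col12a1, which bind the surface of type I fibrils, stood at 38.6 and 109.6 FPKM at 6 months and at 224 and 399 FPKM at 7 days after tenotomy. Col11a1, a chain of the collagen that starts thin fibrils, had 41.4 FPKM at 6 months and 178 FPKM at 7 days. Of the other members of these kinds, Col16a1 and Col22a1 had ratios of -0.94 and -1.12, and the type V chains Col5a1, Col5a2 and Col5a3 had ratios of -0.91, -0.68 and 0.04. Of 25 measured genes that fold, trim and crosslink collagen 7 were lower and none higher (median -0.80), among them Ppib, Crtap and Lepre1, whose proteins modify proline in new collagen chains, and Loxl2, a crosslinking enzyme. Lox itself had a ratio of -0.41.

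Elastic fibre genes were lower in 8 of 17 and higher in none (median -0.89). Eln, which encodes elastin, stood at 32.4 FPKM in the 6-month tenotomy pool and 183 FPKM in the 7-day tenotomy pool, with 15.8 FPKM in the 6-month sham and 147 FPKM in the 7-day sham pool. Fbn2, the fibrillin of developing tissue, stood at 16.6 FPKM at 6 months and 123 FPKM at 7 days after tenotomy, whereas Fbn1, the fibrillin of mature tissue, had a ratio of -0.71. The microfibril genes Mfap4 and Mfap2 had ratios of -2.44 and -2.28. All 17 of these genes were at or above 5 FPKM in both tenotomy pools.

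Tendon genes were lower at 6 months in 9 of 20 and higher in 1 (median -0.78). Tnmd (chromosome X, 133850980-133865577, plus strand, GRCm38), the membrane protein of maturing tenocytes, stood at 47 FPKM in the 6-month tenotomy pool and 279 FPKM in the 7-day tenotomy pool, with 36.9 FPKM in the 6-month sham and 301 FPKM in the 7-day sham pool. The level of Tnmd thus followed age in both operations. Scx stood at 5.70 FPKM at 6 months and 23.3 FPKM at 7 days after tenotomy, with 15.9 FPKM in the 6-month sham and 24.8 FPKM in the 7-day sham pool. For Scx the 6-month tenotomy pool alone was low. Mkx, the second tendon transcription factor, had a ratio of -0.76 after tenotomy and -0.18 after sham.

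Kera, a keratan sulphate proteoglycan gene, had the lowest ratio of the tendon list (-2.50), and Bgn, which encodes biglycan, had 547 FPKM at 6 months and 1316 FPKM at 7 days after tenotomy. Chad, the cell-binding proteoglycan chondroadherin, was the 1 tendon gene that was higher, at 37.9 FPKM at 6 months and 8.36 FPKM at 7 days after tenotomy, with 936 FPKM in the 6-month sham and 27.1 FPKM in the 7-day sham pool. Comp, the cartilage oligomeric matrix protein of loaded tendon, stood at 156 FPKM at 6 months and 144 FPKM at 7 days after tenotomy, against 1443 FPKM in the 6-month sham and 112 FPKM in the 7-day sham pool. In Chad and Comp the 6-month sham pool was by far the highest. After sham the tendon list split, with 5 of 20 higher and 4 lower at 6 months and a median of 0.07.

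Genes of activated fibroblasts were lower at 6 months in 9 of 22 and higher in 3 (median -0.87). Postn, the matricellular protein periostin, stood at 844 FPKM in the 6-month tenotomy pool and 2815 FPKM in the 7-day tenotomy pool, with 133 FPKM in the 6-month sham and 592 FPKM in the 7-day sham pool. C1qtnf3, a secreted protein gene, stood at 116 FPKM at 6 months and 599 FPKM at 7 days after tenotomy, and Prss35, an inactive serine protease gene, at 1.77 FPKM at 6 months and 47.6 FPKM at 7 days. Tnc, which encodes tenascin-C, was within 2-fold, with 169 FPKM at 6 months and 381 FPKM at 7 days after tenotomy. The 3 higher genes were Wisp2, Ctgf and Spp1, with ratios of 1.74, 1.32 and 1.34. Wisp2 and Ctgf belong to the CCN family and Spp1 encodes osteopontin. Spp1 stood at 311 FPKM at 6 months and 146 FPKM at 7 days after tenotomy, with 1131 FPKM in the 6-month sham and 19.4 FPKM in the 7-day sham pool. In the 6-month tenotomy pool Spp1 and Ctgf were thus below the 6-month sham pool (Ctgf 160 against 244 FPKM), and Wisp2 was above it (22.4 against 16.2 FPKM).

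Matrix proteases and their inhibitors went both ways, with 2 of 23 higher, a share close to that among all genes, and 4 lower (median -0.54). Mmp14 and Mmp2, a membrane-bound protease and the gelatinase it activates, stood at 137 and 169 FPKM at 6 months and at 470.3 and 477 FPKM at 7 days after tenotomy. Mmp3, which encodes stromelysin-1, stood at 26.7 FPKM in the 6-month tenotomy pool and 1.71 FPKM in the 7-day tenotomy pool, with 10.4 FPKM in the 6-month sham and 0.232 FPKM in the 7-day sham pool. Mmp3 was higher at 6 months in both operations, while the collagenase gene Mmp13 (40.1 FPKM at 6 months, 54.9 FPKM at 7 days after tenotomy) was within 2-fold.

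Cartilage genes were lower at 6 months in 6 of 10 measured members of 18 listed and higher in 1 (median -1.09), whereas after sham 4 of 8 were higher and 1 lower (median 0.75). Acan, the cartilage proteoglycan aggrecan, stood at 26.9 FPKM in the 6-month tenotomy pool and 153 FPKM in the 7-day tenotomy pool, with 30.5 FPKM in the 6-month sham and 37.2 FPKM in the 7-day sham pool. The 7-day tenotomy pool alone was high. Col2a1, the main collagen of cartilage, had a ratio of -0.36. Only 5 of the 10 were at or above 5 FPKM in both tenotomy pools, and 2 of those were lower. Among 6 measured bone genes, Ibsp, the bone sialoprotein gene, had 41.9 FPKM at 6 months and 3.81 FPKM at 7 days after tenotomy. It had 348 FPKM in the 6-month sham and 1.06 FPKM in the 7-day sham pool, so the 6-month sham pool was by far the highest. Bglap and Bglap2, 2 neighbouring osteocalcin genes that can share reads, were listed at 0 at 6 months and at 18.1 and 10.9 FPKM at 7 days after tenotomy.

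Inflammatory signals stood higher in the 6-month stump. Of 33 listed chemokine and cytokine genes 15 were measured, 11 were at least 2-fold higher at 6 months and none was lower (median 1.21). Il1b, which encodes interleukin-1-beta, stood at 18.2 FPKM in the 6-month tenotomy pool and 1.88 FPKM in the 7-day tenotomy pool, with 1.96 FPKM in the 6-month sham and 0.984 FPKM in the 7-day sham pool. Cxcl5, a neutrophil attractant, stood at 21.5 FPKM at 6 months and 2.30 FPKM at 7 days after tenotomy, with 1.14 FPKM in the 6-month sham and 0.765 FPKM in the 7-day sham pool. For both genes the 6-month tenotomy pool alone was above 5 FPKM. Ccl6, Ccl9 and Ccl7, which attract monocytes, had ratios of 2.70, 2.02 and 1.74, while Cxcl12 was at 148 FPKM at 6 months and 167 FPKM at 7 days. Of the 11 members at or above 5 FPKM in both tenotomy pools, 7 were higher. Among the 9 measured after sham 1 was higher and none was lower (median 0.39). The 1 was Ccl11, which did not reach 5 FPKM in a tenotomy pool. A higher level in a pooled tissue can come from more cells of a type or from more RNA per cell, and these cannot be told apart here.

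Promoters are shown for the higher members that hold a short motif, so that the genes can be read beside the element for which they are known. The 300 bases around the gene start (250 before, 50 after; RefSeq, GRCm38.p6) were searched on both strands for GGANTTTCC, a core of the site of NF-kappaB, which drives cytokine genes in inflammation. The table held 7 of the 11 higher chemokine and cytokine genes, and Cxcl2 and Il6 had a match, as did 1.45% of 27025 genes with a promoter in the table. Each is given 5′ to 3′ on the strand of its gene with the match in capitals, at chr5:90903758-90903857 (plus strand) for Cxcl2 and chr5:30013026-30013125 (plus strand) for Il6.
Cxcl2: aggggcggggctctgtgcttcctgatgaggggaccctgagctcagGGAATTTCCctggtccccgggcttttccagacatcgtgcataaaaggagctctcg
Il6: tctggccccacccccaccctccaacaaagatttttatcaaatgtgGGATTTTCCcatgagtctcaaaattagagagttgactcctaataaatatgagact

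Cxcl2 stood at 6.50 FPKM at 6 months and 1.03 FPKM at 7 days after tenotomy, and Il6, which encodes interleukin-6, at 6.01 FPKM at 6 months and 2.05 FPKM at 7 days. Both were under 5 FPKM at 7 days, and their FPKM rests on few fragments. A match describes the sequence and does not show binding.

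Antigen presentation was higher in its class II part. Of 15 measured genes 5 were higher and none was lower (median 0.88), and the 5 were the class II chains H2-Ab1, H2-Aa and H2-Eb1, the invariant chain Cd74 that escorts them, and H2-DMb1, which helps to load peptide. Cd74 stood at 246 FPKM in the 6-month tenotomy pool and 71.8 FPKM in the 7-day tenotomy pool, with 73.7 FPKM in the 6-month sham and 33.4 FPKM in the 7-day sham pool. H2-Aa stood at 162 FPKM at 6 months and 50.1 FPKM at 7 days after tenotomy, with 38.2 FPKM in the 6-month sham and 19.5 FPKM in the 7-day sham pool. In both genes the 6-month tenotomy pool was the highest and the 7-day sham pool the lowest. The class I genes H2-K1 and H2-D1 had ratios of 1.0 and 0.91, B2m one of -0.34.

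Class II promoters carry an S-X-Y module through which the coactivator CIITA acts, and its Y box contains CTGATTGG. Of the 5 higher antigen presentation genes 3 were in the promoter table, and H2-Aa and H2-Eb1 held these letters, as did 4.70% of the 27025 genes. The stretches, with the match in capitals, lie at chr17:34287821-34287920 (minus strand) for H2-Aa and chr17:34305759-34305858 (plus strand) for H2-Eb1.
H2-Aa: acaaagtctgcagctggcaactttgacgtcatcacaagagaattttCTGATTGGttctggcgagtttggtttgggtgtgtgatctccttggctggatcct
H2-Eb1: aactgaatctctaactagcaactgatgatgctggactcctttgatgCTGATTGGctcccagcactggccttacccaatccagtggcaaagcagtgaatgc

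Macrophage and monocyte genes were higher at 6 months in 10 of 26 measured and lower in 1 (median 0.87, against 0.43 after sham). The higher ones included Lyz2 (lysozyme), Ccr2, the receptor that brings in blood monocytes, Cd14 and Trem2. Lyz2 stood at 1083 FPKM in the 6-month tenotomy pool and 515 FPKM in the 7-day tenotomy pool, with 278 FPKM in the 6-month sham and 187 FPKM in the 7-day sham pool. Arg1, an arginase of repair macrophages, stood at 15.1 FPKM at 6 months and 2.38 FPKM at 7 days after tenotomy. Markers shared by most macrophages or myeloid cells lay on either side of the 2-fold line: Cd68, Itgam and Tyrobp had ratios of 1.06, 1.26 and 1.01, while Csf1r had 0.34 and Mrc1 0.43. Lyve1, a marker of resident macrophages and lymphatic vessels, was the lower one. It stood at 6.84 FPKM at 6 months and 22.5 FPKM at 7 days after tenotomy, with 3.92 FPKM in the 6-month sham and 13.5 FPKM in the 7-day sham pool. Of the 26 ratios 2 were below 0, those of Lyve1 and Cx3cr1 (-0.65). Folr2 and Cd163 had ratios of 0.82 and 0.95, so Lyve1 alone does not give the level of resident macrophages.

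Neutrophil markers were higher in 5 of 9 measured members of 15 listed and lower in 1 (median 1.03). Only 3 of the 9 were at or above 5 FPKM in both tenotomy pools, and 1 of those was higher, S100a9 (ratio 1.03). Retnlg, Il1r2, Csf3r and Clec4d, the other higher ones, were under 5 FPKM at 7 days, so they were measured through the 6-month pool alone. S100a8, a calcium-binding alarm protein gene, stood at 68.7 FPKM at 6 months and 42.3 FPKM at 7 days after tenotomy, with 11.2 FPKM in the 6-month sham and 14.3 FPKM in the 7-day sham pool, a ratio of 0.94. Both tenotomy pools were above both sham pools. Against that direction, Stfa1 and Stfa3, stefin A genes of neutrophils whose close copies can share reads, were listed at 0 at 6 months and at 12.1 and 17.9 FPKM at 7 days after tenotomy. Saa3, an acute phase apolipoprotein gene, stood at 62.6 FPKM at 6 months and 4.49 FPKM at 7 days after tenotomy, with 26.4 FPKM in the 6-month sham and 1.08 FPKM in the 7-day sham pool. It belongs to the complement and acute phase list, in which 4 of 17 were higher and 1 lower (median 0.15). Interferon-stimulated genes were higher in 1 of 10 and lower in none (median -0.04), again a share close to that among all genes, and none of the 12 T, B and NK lymphocyte markers found of 15 listed reached 5 FPKM in either tenotomy pool.

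Mast cell protease genes went the other way. Of 8 listed mast cell markers 4 were measured, all of them protease genes, and these were lower at 6 months after tenotomy and after sham (medians -3.57 and -3.24). Cma1 and Mcpt4, chymases of connective tissue mast cells that lie in 1 gene cluster (chromosome 14, 55941451-55944675 and 56059629-56062313, both on the minus strand of GRCm38), stood at 1.87 and 3.63 FPKM at 6 months and at 61.8 and 37.8 FPKM at 7 days after tenotomy. Cpa3, the mast cell carboxypeptidase, stood at 1.31 FPKM at 6 months and 33.9 FPKM at 7 days after tenotomy, with 0.442 FPKM in the 6-month sham and 15.7 FPKM in the 7-day sham pool. Every one of the 4 was under 5 FPKM in both 6-month pools and between 15.7 and 61.8 FPKM in the 7-day pools, so they were measured through the 7-day pools alone. The other 4 markers were under 5 FPKM in every pool and are not in the medians. Of these the receptor gene Kit had 3.40 FPKM at 6 months and 4.17 FPKM at 7 days after tenotomy, and Hdc, which encodes the histamine-forming enzyme, had 3.40 FPKM at 6 months and 2.66 FPKM at 7 days. The IgE receptor genes Fcer1a and Ms4a2 were at or below 0.496 FPKM in both tenotomy pools.

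**Figure D3:**
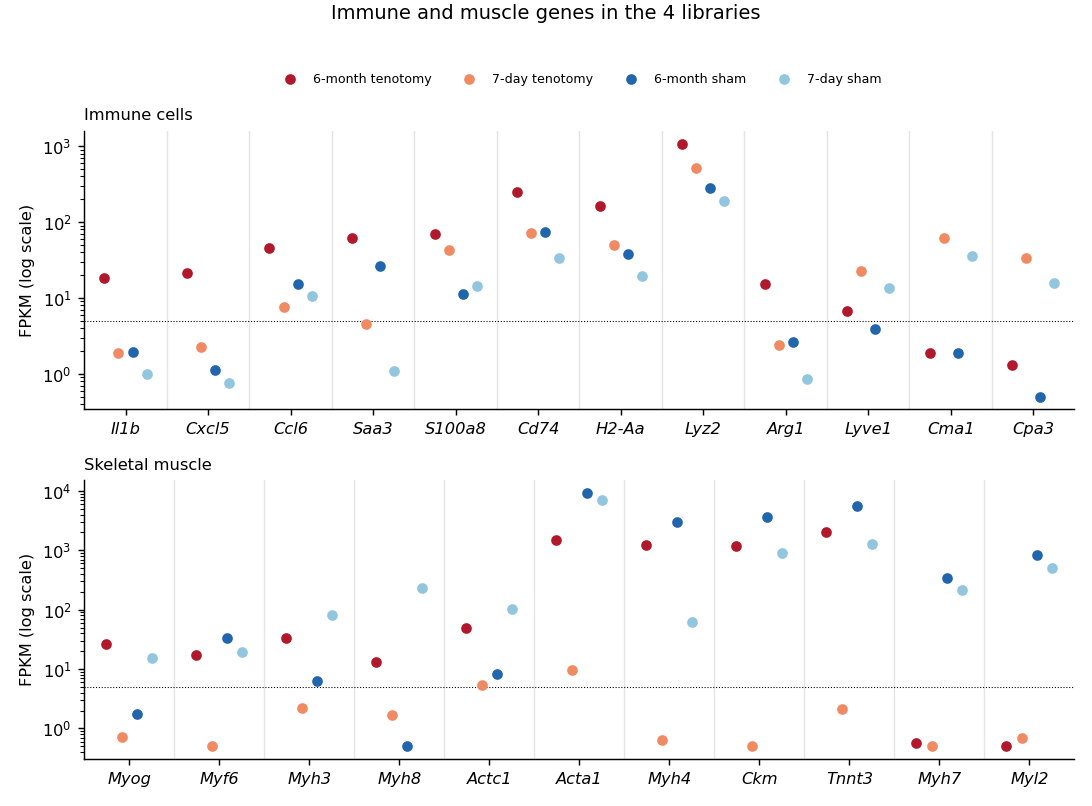
FPKM on a log scale of 12 immune genes (top) and 11 skeletal muscle genes (bottom) in each library, 1 point a pool; values under 0.5 FPKM are drawn at 0.5 and the dotted line marks 5 FPKM. Il1b and Cxcl5 are above 5 FPKM in the 6-month tenotomy pool only, Cma1 and Cpa3 are above it in both 7-day pools only, and most muscle genes are lowest in the 7-day tenotomy pool.

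Endothelial markers had a median of -0.93, with all 14 below 0 and 3 of them at least 2-fold lower: Kdr, the VEGF receptor, Cldn5, a junction protein, and Emcn. None of them passed 2-fold with a pseudocount of 5 FPKM or with an estimate of muscle RNA subtracted, whereas 64.3% did without centring. Pecam1 stood at 40.2 FPKM at 6 months and 88.7 FPKM at 7 days after tenotomy, with 19 FPKM in the 6-month sham and 53.3 FPKM in the 7-day sham pool. Mural and smooth muscle markers were lower in 6 of 13, among them the pericyte gene Rgs5 (39.8 FPKM at 6 months, 144 FPKM at 7 days after tenotomy), and higher in 1, Des, which skeletal muscle also expresses. Of the 9 mural markers at or above 5 FPKM in both tenotomy pools 2 were lower, and Kcnj8, Myh11, Cnn1 and Actg2, the other lower ones, were under 5 FPKM at 6 months. Adipocyte markers were lower in 6 of 14 and higher in none after tenotomy (median -0.90), and lower in 11 of 15 after sham (median -1.94). Plin1, the coat protein of fat droplets, stood at 6.44 FPKM at 6 months and 26.9 FPKM at 7 days after tenotomy, with 3.01 FPKM in the 6-month sham and 74.8 FPKM in the 7-day sham pool.

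Skeletal muscle RNA separated the 2 stumps by the largest ratios of all lists. All 23 mature muscle genes measured of 27 listed were at least 2-fold higher at 6 months (median 7.40). Only 5 of them were at or above 5 FPKM in both tenotomy pools, and all 5 were higher (median 7.40). The rest of the 23 were measured through the 6-month pool alone, and Myh2, Myh7, Myl2 and Myl3 were under 5 FPKM in both. The whole list made up 6.16% of the FPKM of the entries kept in the 6-month tenotomy pool and 0.0195% in the 7-day tenotomy pool. The sham shares were 15.7% at 6 months and 6.79% at 7 days. Myh4, the myosin heavy chain of fast fibres (chromosome 11, 67238029-67260446, plus strand, GRCm38), stood at 1227 FPKM in the 6-month tenotomy pool and 0.627 FPKM in the 7-day tenotomy pool, with 2962 FPKM in the 6-month sham and 61.2 FPKM in the 7-day sham pool. Ckm, muscle creatine kinase, stood at 1171 FPKM at 6 months and 0.250 FPKM at 7 days after tenotomy. The 7-day tenotomy pool alone was nearly free of these transcripts. Slow fibre genes differed from this: the slow myosin gene Myh7 had 0.563 FPKM at 6 months and 0.313 FPKM at 7 days after tenotomy, with 341 FPKM in the 6-month sham and 212 FPKM in the 7-day sham pool. Myl2, the slow regulatory light chain, was listed at 0 at 6 months and at 0.691 FPKM at 7 days after tenotomy, with 831 FPKM in the 6-month sham and 508 FPKM in the 7-day sham pool. Both were thus near 0 in either tenotomy pool, as was Myl3 (1.17 FPKM at 6 months, listed at 0 at 7 days). Other slow fibre genes, such as Tnni1 (51.4 FPKM at 6 months, 3.75 FPKM at 7 days after tenotomy), were under 5 FPKM at 7 days only.

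Genes of developing and regenerating muscle were also higher at 6 months after tenotomy, in 9 of 9 measured members of 13 listed (median 3.25), whereas after sham 5 of 8 were lower and 2 higher (median -1.87). Myog, the transcription factor of muscle differentiation, stood at 26 FPKM in the 6-month tenotomy pool and 0.711 FPKM in the 7-day tenotomy pool, with 1.73 FPKM in the 6-month sham and 15 FPKM in the 7-day sham pool. Myh3, the embryonic myosin heavy chain (chromosome 11, 67078300-67102291, plus strand, GRCm38), stood at 33.3 FPKM at 6 months and 2.21 FPKM at 7 days after tenotomy, with 6.24 FPKM in the 6-month sham and 80.5 FPKM in the 7-day sham pool. Myh8, the perinatal myosin heavy chain of the same cluster (67277124-67308634, plus strand), stood at 13.1 FPKM at 6 months and 1.69 FPKM at 7 days after tenotomy, with 0.280 FPKM in the 6-month sham and 233 FPKM in the 7-day sham pool. In all 3 genes the 6-month tenotomy pool was above the 6-month sham pool, while the 7-day tenotomy pool was below the 7-day sham pool. Actc1, the actin of fetal muscle, and Tmem8c, which encodes the fusion protein myomaker, showed the same order. Myf6 and Mstn did not: at 6 months they had 17.2 and 6.80 FPKM after tenotomy and 33.3 and 16.8 FPKM after sham. They were the 2 members higher at 6 months after sham (ratios 1.02 and 2.40). Of the 9 genes, 1 was at or above 5 FPKM in both tenotomy pools. The listed muscle stem cell genes Pax7 and Myf5 did not reach 5 FPKM in either tenotomy pool and are not among the 9.

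Higher genes outside the 2 muscle lists included some that muscle also expresses, and how many did was not counted. Of the 816 higher genes 32 were in the 2 muscle lists, 165 were under 1 FPKM in the 7-day tenotomy pool, and the 15 highest ratios outside those lists were led by Mybpc2, Myoz1 and Eef1a2, which muscle expresses. At 6 months the mature muscle genes stood after tenotomy at a median of 29.6% of their sham level, and at 7 days at 0.368%. With that share of each gene's sham level subtracted (called the muscle bound here), 623 genes were higher and 621 lower of 8598. Both ways, 405 genes were higher and 330 lower. The share is a median, so the muscle bound is not an upper limit on muscle RNA. After it was subtracted, the muscle genes Myl1 and Pvalb still had 736 and 535 FPKM in the 6-month tenotomy pool. The bound takes the same share from tendon genes of the sham pool as from muscle genes: it turned the ratios of Chad to -2.42, Prg4 to -1.29, Spp1 to -6.41, Des to -2.81 and Cox8b to -2.65. Of the 816 higher genes 308 were above the 6-month sham pool in the 6-month tenotomy pool and 508 were below it.

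Energy metabolism genes were higher at 6 months beside this difference in muscle. Glycolysis and hypoxia genes were higher in 10 of 20 and lower in none (median 0.99), and respiratory chain genes in 4 of 21 and none (median 0.62). Pgam2, Pfkm and Aldoa, which have muscle forms or are abundant there, had ratios of 5.71, 4.59 and 3.47, and Cox7a1 and Cox8b, the muscle and heart forms of cytochrome oxidase subunits, 4.13 and 3.77. Slc2a1, the glucose transporter of most cells, had a ratio of -0.07. With the muscle bound subtracted, 4 of 19 glycolysis genes were higher and 1 was lower, and of 20 respiratory chain genes none was higher and 1 was lower, so the direction of the respiratory chain list was not kept. Ndufs5, another respiratory chain gene, was at 0.00227 FPKM at 6 months and 13.2 FPKM at 7 days after tenotomy; every cell uses it, so values at or near 0 in these tables can be failed estimates.

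Among signals that pattern growing connective tissue, the lists differed. Wnt genes were lower in 8 of 11 measured members of 27 listed and higher in none (median -1.13), and these were mainly secreted modulators. Dkk3 stood at 32.6 FPKM at 6 months and 140.3 FPKM at 7 days after tenotomy, and Sfrp2, a secreted Wnt-binding protein gene, at 77.6 FPKM at 6 months and 237 FPKM at 7 days. Of the 5 at or above 5 FPKM in both tenotomy pools, 3 were lower. Hedgehog pathway genes were lower in 3 of 6, namely the coreceptors Cdon, Boc and Gas1 (ratios -1.46, -1.24 and -1.14). TGF-beta and BMP genes were lower in 5 of 21 and higher in none, with a median of -0.04: the ligand genes Tgfb1, Tgfb2 and Tgfb3 had ratios of 0.26, -0.63 and -0.99, and the lower ones included Gdf10, a ligand, and Ltbp1, which holds latent TGF-beta in the matrix. With 5 FPKM or more in both tenotomy pools, 2 of 17 TGF-beta and BMP genes were lower. PDGF, FGF and VEGF genes were lower in 3 of 21 and higher in none (median -0.36). At or above 5 FPKM in both tenotomy pools, 1 of 16 was lower.

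Immediate early genes were higher at 6 months in 7 of 18 and lower in none (median 0.31), with Fos at 21.3 FPKM and Socs3, a feedback inhibitor of cytokine signalling, at 53.9 FPKM at 6 months, against 10.6 and 28.8 FPKM at 7 days after tenotomy. Without centring 1 of the 18 was higher. Antioxidant and metallothionein genes were higher in 4 of 18 and lower in none (median 0.32). Mt2, a metal-binding stress protein gene, stood at 166 FPKM at 6 months and 20.9 FPKM at 7 days after tenotomy, with 81.4 FPKM in the 6-month sham and 14.1 FPKM in the 7-day sham pool. It was higher at 6 months in both operations.

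Sheath and adventitial genes differed in part of each list. Of 12 sheath and synovial lining genes 2 were higher and 2 lower (median -0.11). Prg4, which encodes lubricin, stood at 179 FPKM at 6 months and 79.4 FPKM at 7 days after tenotomy, with 544 FPKM in the 6-month sham and 31.9 FPKM in the 7-day sham pool. Tppp3 stood at 40.3 FPKM at 6 months and 68.2 FPKM at 7 days after tenotomy, with 59 FPKM in the 6-month sham and 227 FPKM in the 7-day sham pool. The ratio of Tppp3 was thus within 2-fold after tenotomy (-0.50) and past it after sham (-1.68), and the difference between those ratios was not tested. Adventitial progenitor genes were lower in 4 of 13 and higher in none (median -0.62), with Pdgfra, a fibroblast receptor, at a ratio of -0.31.

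**Figure D4:**
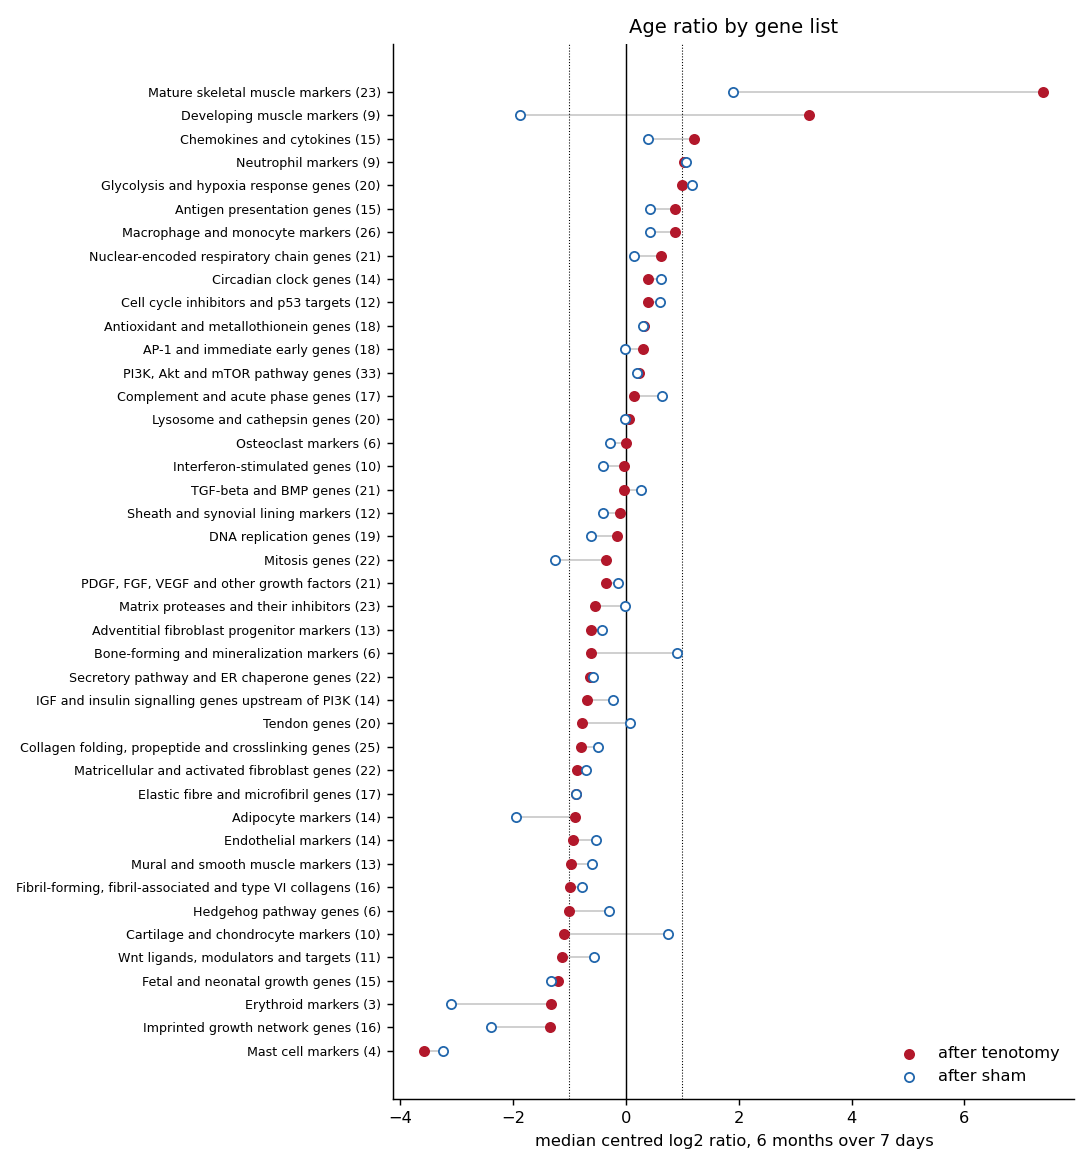
Median centred log2 ratio of each list with at least 3 members measured, after tenotomy (filled) and after sham (open), with the number of members measured after tenotomy in brackets; the solid line is the median of all genes and the dotted lines mark 2-fold. Developing muscle, cartilage and bone lists have medians on opposite sides of 0 after tenotomy and after sham, and mast cell and imprinted growth lists are low in both.

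Much of the age difference in the stump was also present without a cut tendon. Of the 816 genes higher at 6 months after tenotomy, 365 (44.7%) were also at least 2-fold higher after sham, 296 were within 2-fold, 22 were lower and 133 did not reach 5 FPKM in a sham pool; the 365 are 40.4% of the 903 genes higher after sham. Of the 482 lower genes, 213 (44.2%) were also lower after sham, 190 were within 2-fold, 7 were higher and 72 did not reach 5 FPKM, and the 213 are 28.2% of the 754 lower after sham. The 2 comparisons share no library. Across the 8380 genes compared in both, Pearson's r between the ratios was 0.59 and Spearman's rho 0.58, as a description across genes that share libraries and animals of an age. Collagen, elastic fibre, imprinted growth, mast cell and adipocyte lists had negative medians in both operations. Chemokine and cytokine genes were higher in 11 of 15 after tenotomy and in 1 of 9 after sham, but these counts cover different genes. Ccl2, Ccl7, Cxcl2, Cxcl5, Il1b and Il6, higher after tenotomy, did not reach 5 FPKM in a sham pool. Ccl6, Ccl8, Ccl9, Cxcl14 and Cxcl16, the higher ones measured in both, had sham ratios between -0.55 and 0.82. Genes of developing muscle had medians of opposite sign.

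**Figure D5:**
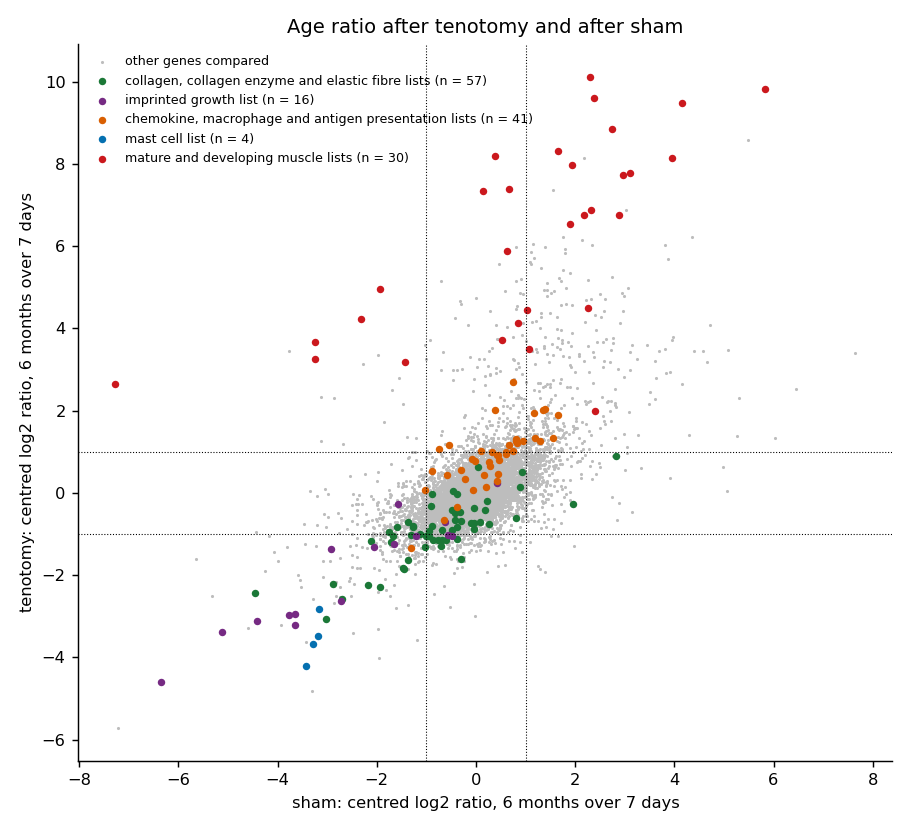
Each point is 1 of the 8380 genes compared in both operations, at its centred log2 ratio of 6 months over 7 days after sham (x axis) and after tenotomy (y axis), with the same groups of lists coloured; dotted lines mark 2-fold. Most imprinted growth genes and the mast cell genes lie low on both axes, and the developing muscle genes Myog, Myh3, Myh8 and Actc1 lie to the left and above.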

How the data were processed

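Each of the 4 groups was a single pool of Achilles tendon RNA. Per the labels' protocols, RNA integrity was below 8, and 10 ng of RNA went into directional libraries that were depleted of ribosomal RNA and read as 75-base pairs on a MiSeq. Per the submitters' processing notes TopHat, Cufflinks and mm10 were used. Versions, settings, annotation and any scaling between tables: not given in the sources used here.

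There were 2 tables deposited by the authors, 1 per age, whose values were taken as FPKM from their layout. The tables were joined by gene (23350 entries), and 786 small RNA and 1169 Gm entries were left out. Ratios are log2 of (6-month FPKM + 1) over (7-day FPKM + 1), centred on their median over genes with 5 FPKM or more in a pool of the pair; an absolute ratio of at least 1 is called. Depth came from the steps between low FPKM values, of which 71.7% to 74.5% were whole fragments within 0.1, too few for a count test. The muscle bound subtracts from each tenotomy value the sham value times the median tenotomy-to-sham ratio of the mature muscle list. Muscle genes with a ratio above that median keep part of their level.

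The comparison, its 45 gene lists (854 symbols found, 8 not) and the alternatives were chosen with earlier results of these data known. Genes named were the 15 highest and lowest ratios at or above 10 FPKM with and without muscle lists, the 10 most abundant per pool, up to 6 members per list past 2-fold with its most abundant member, and a fixed set; other list members named were chosen after their values were seen. The rule was tested on simulated data. Gene positions are from GENCODE M21. Tools were NumPy 2.4.6, pandas 2.3.3, matplotlib 3.10.9 and SciPy 1.17.1 under Python 3.11.15.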

Additional observations from a re-analysis of the deposited data

Results flagged for a closer look

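In 7 of the genes named here the age ratio passed 2-fold one way after tenotomy and the other way after sham. Each is given as the centred log2 ratio of 6 months over 7 days, after tenotomy and then after sham: Myog (4.23 and -2.31), Myh3 (3.67 and -3.25), Myh8 (2.64 and -7.27), Actc1 (3.25 and -3.24), Tmem8c (3.19 and -1.44), Hmga1 (2.33 and -3.12) and Atf3 (1.34 and -1.21). The first 5 are genes of developing muscle, Hmga1 is a chromatin protein gene of growing cells and Atf3 is an immediate early transcription factor gene. With 1 pool a group, the difference between the ratios was not tested. Over all genes, 22 of the 816 higher after tenotomy were lower after sham, and 7 of the 482 lower after tenotomy were higher after sham. The Hmga1 value of 0.00104 FPKM in the 6-month sham pool may be a failed estimate, which was not tested. No group had enough samples for a search for a library that stands apart.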

How the results depend on the processing

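With 12 alternatives, 33 of 46 alternative counts of genes stayed within 1.5 times the count given, and 452 of 501 alternative list shares stayed within the exact binomial (Clopper-Pearson) 95% interval of the share given; that interval covers the number of members only. Of 124 named genes past 2-fold, 59 kept their call in every alternative that gave a value, and 62 changed it in an alternative other than the muscle bound and the single-gene setting, mostly with percentile ranks. A pseudocount of 5 FPKM left 478 higher and 215 lower genes after tenotomy and 531 higher and 405 lower after sham. A floor of 20 FPKM left 370 higher and 172 lower after tenotomy and 477 higher and 351 lower after sham. Without a floor 777 were lower after tenotomy and 1157 after sham; without centring 918 were lower after tenotomy, and 601 were higher and 1194 lower after sham. 

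List shares that moved, each as the share of measured members past 2-fold in the list's leading direction, were these. Percentile ranks, which compress differences between abundant genes, gave 0% (sheath, secretory, lysosome), 4.8% (TGF-beta and BMP), 5.9% (complement), 6.2% (collagen), 8.0% (collagen enzyme), 9.1% (activated fibroblast), 11.8% (elastic fibre), 15.4% (mural), 20% (tendon, glycolysis) and 37.5% (imprinted growth). Without centring they were 0% (clock, lysosome), 5.6% (immediate early), 36.4% (secretory), 52.0% (collagen enzyme), 64.3% (endothelial) and 71.4% (adipocyte). A floor of 20 FPKM gave 0% (interferon, bone, PI3K-Akt, clock, secretory), 16.7% (mural), 60.0% (cell cycle inhibitor), 75.0% (antigen presentation) and 100% (neutrophil, red cell), with few members left in each. A pseudocount of 5 FPKM gave 0% (interferon, endothelial, immediate early, clock), 15.4% (mural), 18.2% (Wnt) and 20% (cartilage). The Wnt share was 38.1% at a floor of 1 FPKM and 30.8% with no floor. Single-gene entries with status OK gave 0% (interferon, red cell, bone).

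Subtracting the muscle bound gave 0% (endothelial, clock, respiratory chain, secretory), 21.1% (glycolysis), 69.2% (IGF) and 73.1% (macrophage). Directions turned for the clock and respiratory chain lists there, for the bone list at a floor of 20 FPKM and for the bone and red cell lists with single-gene entries. The ratios that turned were those of Chad (-2.42), Prg4 (-1.29), Spp1 (-6.41), Des (-2.81) and Cox8b (-2.65), all with the muscle bound, which by its construction also removes tendon RNA. The causes of the other moves were not tested.

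No paired analysis was possible because each group was a single pool. The depth, about 24.2 fragments for a 2 kb transcript at 5 FPKM in the 6-month tenotomy library, limits ratios of low genes, and differences in dissection, RNA integrity, library or sequencing run between the ages cannot be told apart from age.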

Other observations

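Of 20 lysosome and cathepsin genes 1 was at least 2-fold higher at 6 months (Ctsh, ratio 1.14) and none was lower (median 0.05), and none of 6 osteoclast genes passed 2-fold, with Ctsk, the collagen-degrading cathepsin of osteoclasts, at 169 FPKM at 6 months and 251 FPKM at 7 days after tenotomy. Secretory pathway and chaperone genes had a median of -0.63, close to that of the collagen enzymes, with 19 of 22 below 0 and 1 past 2-fold in each direction: Pdia3, a disulphide isomerase gene (-1.07), and Ddit3, a stress transcription factor gene (1.82). Circadian clock genes had a median of 0.40 and 1 of 14 past 2-fold, Per2 (1.09). No skin or hair marker reached 5 FPKM in a tenotomy pool, and of 10 Schwann cell markers 1 did, Pmp22 (-0.55).

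Red cell genes could be read in part. Alas2, which starts haem synthesis in red cells, stood at 3.0 FPKM at 6 months and 10.9 FPKM at 7 days after tenotomy, and Bpgm had a ratio of 1.30. Hba-a2 stood at 0.125 FPKM at 6 months and 69.7 FPKM at 7 days after tenotomy, but a second entry that joins Hba-a1 with Hba-a2 went the other way. These near-identical copies share reads, so the globin values are uncertain.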
